A study of Mus musculus with 4 samples.

Results

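Retinoic acid, a hormone made from vitamin A, reaches its target genes through a short chain of proteins, and 9 genes tied to that chain were followed here in mouse embryonic stem cells (ESCs) depleted of CNOT1. They were the receptor genes Rara, Rarb and Rarg, the carrier and enzyme genes Stra6, Crabp1, Crabp2, Dhrs3 and Cyp26a1, and Tgm2, which encodes the protein-crosslinking enzyme transglutaminase 2 and is a classical retinoic acid target. The 9 were found by symbol among 50559 genes in a table of read counts. Tgm2 was chosen because it was strongly lower after Cnot1 knockdown in these same libraries, so its values are given as a description with no test. The other 8 were chosen by function, although results of the data were already known when they were chosen.

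CNOT1 holds together the subunits of CCR4-NOT, the enzyme complex that shortens the poly(A) tails of mRNAs, and the experiment asked how the ESC transcriptome changes when it is depleted. Cells of the E14 line were transfected with a non-targeting siRNA (siNT) or with siRNA against Cnot1 (siCnot1), each at 150 nM, and were collected at 48 h, with 2 libraries per group. All 4 libraries came from cells grown on gelatin with leukemia inhibitory factor and serum replacement, and the stated medium names no added retinoid. According to the methods the 2 libraries of a group are independent biological replicates, and the p-values measure the spread between them in a single cell line. The methods list a pair of Cnot1 siRNAs without saying which was used for sequencing, and they describe ESCs with a tdTomato reporter driven by the MERVL promoter without saying whether these E14 cells carry it.

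Retinol enters cells through the membrane receptor STRA6, is oxidised to retinaldehyde and then, by ALDH1A enzymes, to retinoic acid. DHRS3 reduces retinaldehyde back to retinol, CRABP1 and CRABP2 carry retinoic acid in the cytoplasm, and CYP26 enzymes break it down. Retinoic acid receptors (RARs) pair with retinoid X receptors (RXRs) on DNA at direct repeats of a short half-site, where they recruit corepressors without ligand and coactivators with it, and exogenous retinoic acid drives ESCs out of the pluripotent state.

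The half-site repeat is shown for the 2 members that held it in their promoters, since it is the element through which RAR and RXR pairs are known to act. RefSeq promoters (GRCm38.p6, from 250 bases before to 50 bases after each transcription start) were searched on both strands for the half-sites AGGTCA or AGTTCA or GGGTCA or GGTTCA. Promoters were matched for 7 of the 9 members, in 16 windows, with none for Tgm2 and Crabp2. A direct repeat of 2 half-sites with a spacer of 5 bases (DR5) was present in Rarb and in Cyp26a1. The stretches below read 5′ to 3′ on the gene's own strand, with the half-sites in capitals.
Rarb: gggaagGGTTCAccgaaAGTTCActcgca
Cyp26a1: taaagaTGAACTttgggTGAACTaatttg
The Rarb stretch lies at chr14:16575507-16575535 on the minus strand, with the repeat at positions -53 to -37 from the start. The Cyp26a1 stretch lies at chr19:37697770-37697798 on the plus strand, with the repeat at -32 to -16, and there the half-sites lie on the strand opposite to the gene. Of 32851 promoters, 32 (0.0974%) held a DR5, whereas 43.7% held at least 1 single half-site. Repeats with spacers of 1 base (0.222% of promoters) and of 2 bases (0.268%) were in none of the matched member promoters. These matches describe the letters in these windows, and binding was not measured.

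Between 32135824 and 32557440 counts per library fell on genes, a depth at which 3 counts, taken as the limit of detection, correspond to 0.0921 to 0.0934 CPM (counts scaled to a common library size); this limit covers counting error only. The targeted gene, Cnot1, stood at 188 ± 5.14 normalised CPM in siCnot1 and at 949 ± 51.7 in siNT (SD, n = 2 each), a log2 fold change of -2.33 (adjusted p = 2.37e-18, edgeR). The ESC markers, all 12 of which were detected, summed to 8066 to 8335 CPM in siNT and 6771 to 7082 CPM in siCnot1. Of the 12, 8 were called lower and none higher, with log2 fold changes from -0.45 to 0.09 (median -0.18). These shifts were small, and the markers were not refitted under other scalings. Of 18144 genes with enough counts to be tested, 29.7% were called at an adjusted p under 0.05 (edgeR's quasi-likelihood test, Benjamini-Hochberg), 15.0% as higher and 14.7% as lower in siCnot1. Higher genes thus made up 50.5% of the calls, and 71.9% when libraries were scaled by their totals only, a scaling that moved the median log2 fold change of all genes from 0.01 to 0.12. The member results below are set against these shares.

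Tgm2 transcripts were lower in both siCnot1 libraries. The gene lies at chr2:157958325-157988312 on the minus strand (GRCm39). The siNT libraries held 73.81 and 73.80 normalised CPM of it, and the siCnot1 libraries 19.11 and 17.39. Levels in the siNT libraries were nearly equal, and the siCnot1 mean stood at 24.7% of the siNT mean. The log2 fold change of -2.02 was the value Tgm2 was chosen for, and it ranked 52nd from the lowest among the genes tested. It ranged from -2.09 to -1.91 over other scalings, filters and tests and with any one library left out. Because whole cultures were sequenced, fewer cells with Tgm2 transcripts and fewer transcripts per cell cannot be told apart.

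**Figure D1:**
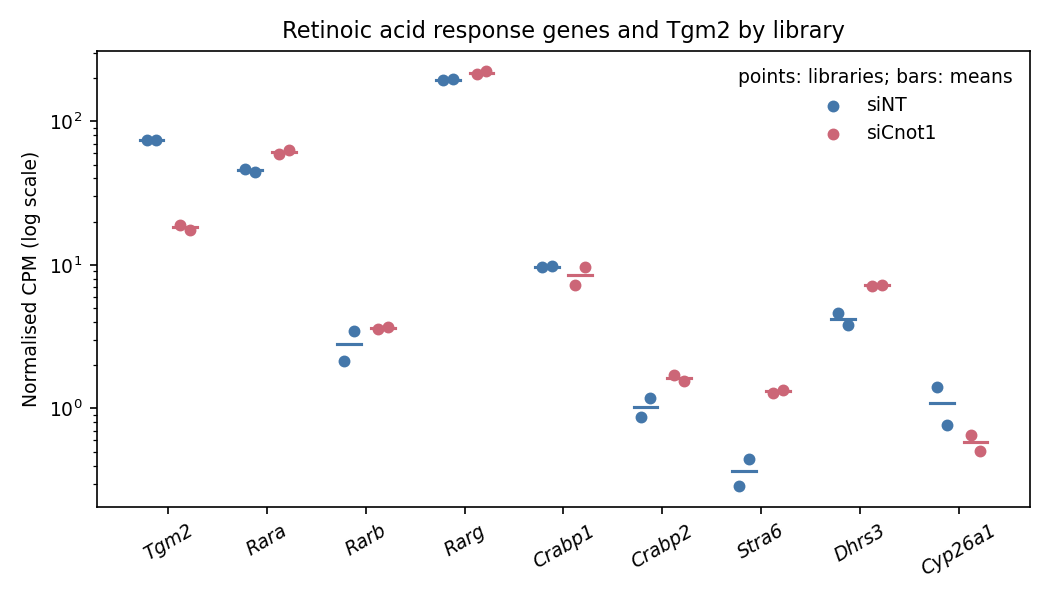
Normalised CPM (log axis) of the 9 members in each library, with libraries as points, coloured by group, and group means as bars. Tgm2 falls from 73.8 to 18.3 CPM, whereas Stra6, the lowest member in siNT, moves from 0.368 to 1.31 CPM.

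No gene in the table overlapped Tgm2, and its neighbours were listed to show the region. Within 250 kb, 12 other genes were tested, of which 1 was called higher, 1 lower and 10 neither, where 29.7% of all genes were called. Of the genes on either side, Rprd1b had a log2 fold change of 0.06 (SE 0.0701, adjusted p = 0.544, edgeR) and the low-abundance D630003M21Rik one of 1.17 (SE 0.685, adjusted p = 0.214, edgeR). The call in the upward direction was Snhg11, a small nucleolar RNA host gene 229.3 kb upstream, with normalised CPM of 29.8 and 37.74 in siNT and 101.2 and 78.57 in siCnot1 (log2 fold change 1.41, SE 0.107, adjusted p = 1.7e-09, edgeR). The call in the downward direction was Ctnnbl1, with a log2 fold change of -0.27 (SE 0.0723, adjusted p = 0.00706, edgeR), at -224.5 kb, on the downstream side of Tgm2.

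**Figure D2:**
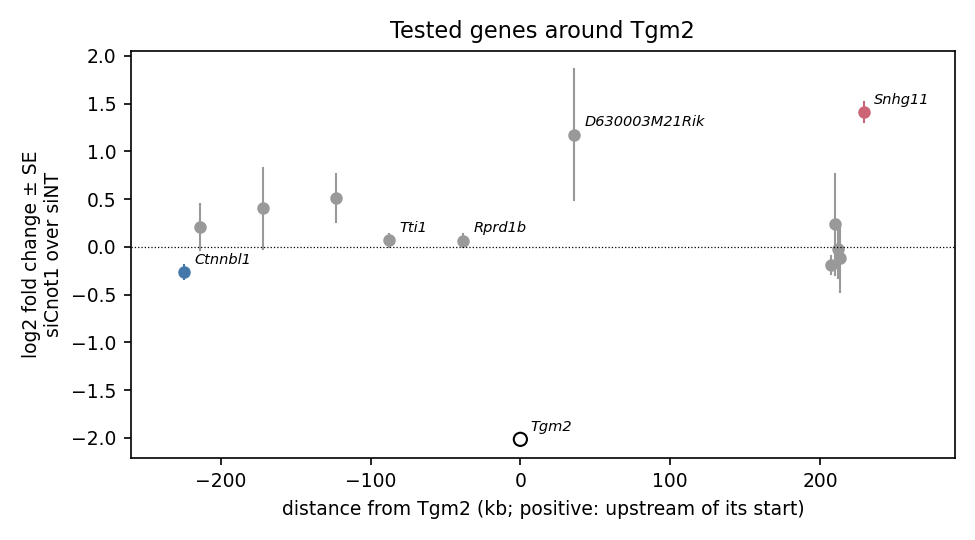
Log2 fold change (siCnot1 minus siNT, bars: SE) of Tgm2 and the tested genes within 250 kb, placed by their distance in kb from Tgm2, positive upstream. Tgm2 at -2.02 and Snhg11 at 1.41 lie at opposite ends, and the 2 tested genes next to Tgm2 are at 0.06 and 1.17.

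The genes whose profile over the 4 libraries was closest to that of Tgm2 were sought among 9972 genes with a mean log2 CPM of at least 3, by the Euclidean distance between centred log2 CPM values. They were the X-linked lymphocyte-regulated genes Xlr3c (distance 0.204), Xlr5a (0.221) and Xlr5b (0.318), the predicted gene Gm21283 (0.291) and Msln (0.335), which encodes the surface protein mesothelin. Xlr3c had normalised CPM of 42.5 and 43.5 in siNT and 10.6 and 11.6 in siCnot1, close to the proportions of Tgm2. Their log2 fold changes ran from -1.95 to -1.71, which the choice of nearest profiles fixes. Xlr family members are near copies of one another, so reads may be split among them.

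Other transglutaminases and proteins that bind transglutaminase 2 were counted beside it. Transglutaminases join glutamine and lysine side chains of proteins. Of 9 further transglutaminase family genes only 2 were tested. Tgm1, which crosslinks proteins of the epidermal envelope, had normalised CPM of 57.5 and 59.2 in siNT and 39.8 and 40.9 in siCnot1 and was lower (log2 fold change -0.53, SE 0.0822, adjusted p = 2.88e-05, edgeR). Tgm3 had a log2 fold change of 0.17 and was not called (adjusted p = 0.252, edgeR). Of 8 binding partners of transglutaminase 2, all tested, 3 were higher and none lower (median log2 fold change 0.20), or 37.5% called against 29.7% of all genes. The heparan sulfate proteoglycan gene Sdc4 had normalised CPM of 23.3 and 19.9 in siNT and 47.7 and 35.6 in siCnot1 (log2 fold change 0.94, SE 0.119, adjusted p = 2.25e-06, edgeR). The fibronectin receptor subunit Itga5 followed with 0.37 (adjusted p = 2.05e-05, edgeR) and the endocytic receptor Lrp1 with 0.18 (adjusted p = 0.0291, edgeR). The Lrp1 call was lost whichever library was left out (adjusted p from 0.0781 to 0.254, edgeR) and when low counts were not filtered (adjusted p = 0.14).

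Of the 8 members other than Tgm2, 4 were called higher, none lower and 4 not called. That is 50.0% called, against 29.7% of all genes tested, with a median log2 fold change of 0.39 against 0.01 over all genes. The calls were Stra6, Dhrs3, Rara and Rarg. Rarb, Crabp1, Crabp2 and Cyp26a1 did not pass the test. In all 9 members the normalised CPM of the 2 groups did not overlap, although for Crabp1 the gap was between 9.64 and 9.62 CPM. The share of all tested genes without overlap was not counted, and Tgm2 was chosen for this difference. The lack of overlap is therefore no result about the members. All 9 members passed the filter on low counts, but Stra6 passed it through siCnot1 alone, where it is high. Of the 7 that also passed it in siNT, 3 were called (42.9%), with a median log2 fold change of 0.36. With 8 genes chosen with results known, the counts describe these genes and no more.

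**Figure D3:**
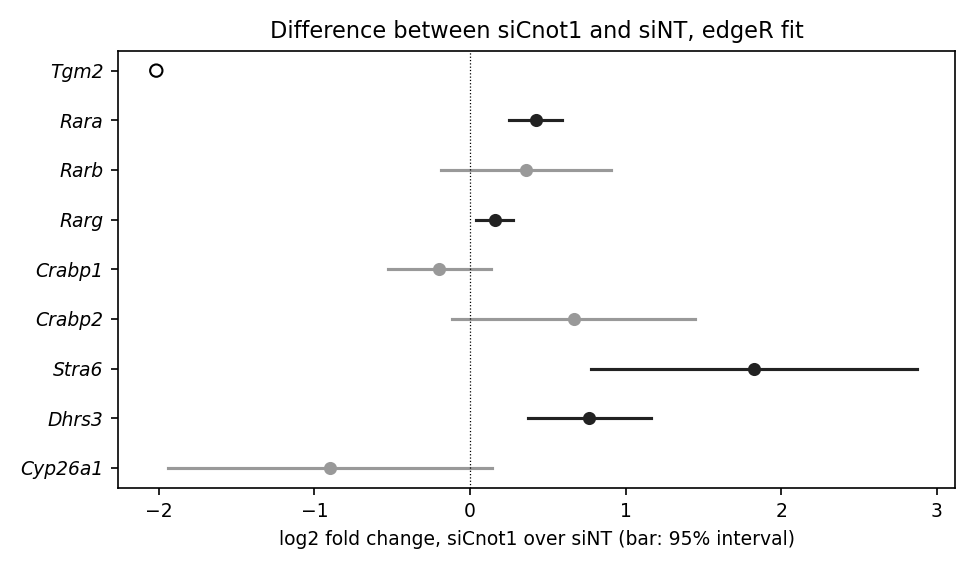
Log2 fold change (siCnot1 minus siNT, points) with 95% intervals (bars) for the members, in black where called and grey where not, with Tgm2 as an open circle without interval. The intervals of Stra6, Dhrs3, Rara and Rarg lie above 0, those of Rarb, Crabp1, Crabp2 and Cyp26a1 span 0, and Tgm2 lies lowest at -2.02.

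Of the 3 receptor genes, Rara and Rarg were called higher in siCnot1 and Rarb was not called. Rara, at chr11:98818626-98865768 on the plus strand, had normalised CPM of 46.5 and 44.7 in siNT and 59.0 and 63.1 in siCnot1. Both siCnot1 libraries lay above both siNT libraries, with a log2 fold change of 0.42 (SE 0.081, adjusted p = 0.000342, edgeR). The call held with any one library left out (adjusted p from 0.0149 to 0.0456, edgeR). The antisense gene Gm46294 shares 246 exon bases with Rara but had only 4 to 12 counts per library, against 1400 to 2110 for Rara. Rarg encodes the receptor that predominates in ESCs and lies at chr15:102143373-102165957 on the minus strand. It had normalised CPM of 192.7 and 197.1 in siNT and 212.9 and 222.4 in siCnot1. The shift was small, a log2 fold change of 0.16 (SE 0.0571, adjusted p = 0.0378, edgeR). It was no longer called when low counts were not filtered (adjusted p = 0.119) or with any one library left out, which gave an adjusted p of 0.216 without siNT replicate 1, 0.134 without siNT replicate 2, 0.119 without siCnot1 replicate 1 and 0.291 without siCnot1 replicate 2 (edgeR).

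Rarb, itself a direct retinoic acid target and a carrier of the DR5 shown above, was expressed at a low level and did not pass the test. It lies at chr14:5387365-6038924 on the plus strand of GRCm39, whereas the GRCm38.p6 promoter above is on the minus strand. The siNT libraries held 2.15 and 3.48 normalised CPM and the siCnot1 libraries 3.55 and 3.68. The siNT libraries differed from each other by more than the upper one differed from siCnot1. The log2 fold change was 0.36 (SE 0.264, 95% interval -0.19 to 0.91, adjusted p = 0.337, edgeR), and the interval includes both no change and a rise of 0.91.

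To compare levels between genes, counts were divided by gene length and expressed as length-scaled transcript shares (TPM). Rarg took 84.3% and 84.7% of the summed TPM of the 3 receptors in the siNT libraries and 82.2% and 81.9% in the siCnot1 libraries. Rara took 14.8% and 14.0% in siNT and 16.6% and 16.9% in siCnot1. Rarb stayed at 0.848% to 1.34% in all 4 libraries. The Rara share was thus larger and the Rarg share smaller in siCnot1, a difference between 2 libraries per group that was not tested. Rarg itself did not fall, with mean normalised CPM of 195 in siNT and 218 in siCnot1.

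**Figure D4:**
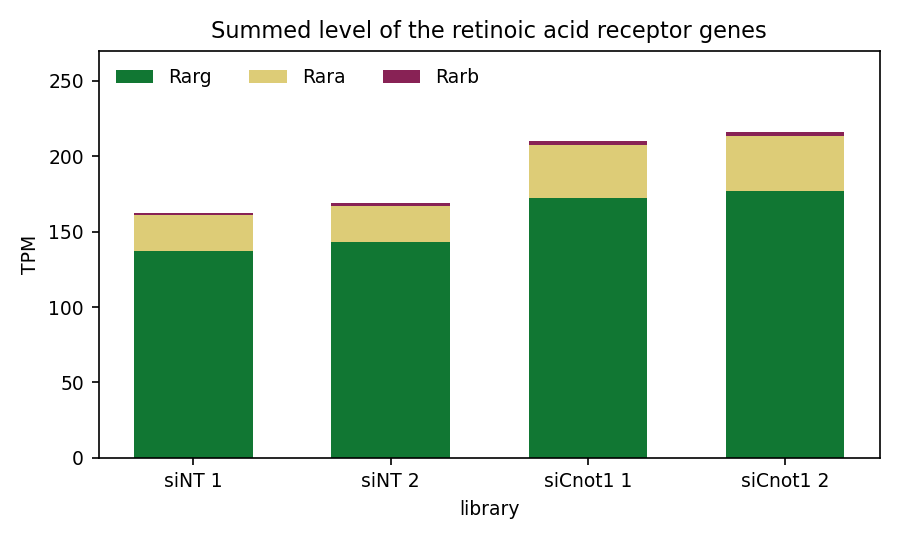
Levels in TPM of Rara, Rarb and Rarg, stacked as bars from 0, in each of the 4 libraries. Rarg holds between 81.9% and 84.7% of the receptor sum in every library.

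RXRs are the obligate partners of the RARs on DNA, and none of the 3 RXR genes was called. Rxra had a log2 fold change of 0.11 (adjusted p = 0.467, edgeR) and Rxrb one of -0.13 (adjusted p = 0.36, edgeR). Rxrg had few counts, 2 and 14 in siNT and 18 and 20 in siCnot1 (log2 fold change 1.14, adjusted p = 0.266, edgeR). It passed the filter on low counts through the siCnot1 libraries alone, where it is high. Over 19 receptor partners and co-regulators, all tested, 2 were higher, 6 lower and 11 not called (42.1% called, against 29.7% of all genes), with a median of 0.03. Nrip1, a ligand-dependent corepressor, was called higher at 0.29 (adjusted p = 0.0482, edgeR).

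Among the lower co-regulators the acetyltransferase gene Kat2b changed the most, with 3933 and 4483 counts in siNT and 3152 and 3047 in siCnot1 (log2 fold change -0.54, SE 0.0674, adjusted p = 1.9e-06, edgeR). The coactivator Ncoa1 was lower by -0.31 (adjusted p = 0.0218, edgeR). The corepressor scaffold Sin3a and the corepressor subunit Tbl1x followed with -0.28 (adjusted p = 0.000636, edgeR) and -0.27 (adjusted p = 0.00294, edgeR). Coactivators and corepressors were thus both among the lower genes. The Kat2b call held with any one library left out. The Nrip1 call was lost in each of those fits (adjusted p from 0.072 to 0.354, edgeR), with DESeq2 size factors (adjusted p = 0.0506) and in DESeq2 (adjusted p = 0.148). Ncoa1 was lost when library totals were used for scaling (adjusted p = 0.133) and Tbl1x likewise (adjusted p = 0.0607). When low counts were not filtered, the Nrip1 (adjusted p = 0.192), Ncoa1 (0.1115) and Tbl1x (0.0569) calls were lost, all by edgeR. A replicate block also ended the Nrip1 call (adjusted p = 0.0538, edgeR). Leaving out siNT replicate 1 ended the Sin3a call (adjusted p = 0.0685, edgeR) and the Ncoa1 call (0.162). The latter was also lost without siNT replicate 2 (0.175) or siCnot1 replicate 1 (0.291), where the Tbl1x call was lost too (0.115 and 0.0979).

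Stra6, the gene for retinol uptake, had the largest rise among the members from the lowest level. It lies at chr9:57971076-58061287 on the plus strand. It had 9 and 14 counts in siNT and 43 and 45 in siCnot1, or normalised CPM of 0.289 and 0.447 against 1.28 and 1.34. The siCnot1 libraries agree closely with each other and lie 3.54-fold above siNT (log2 fold change 1.83, SE 0.505, 95% interval 0.78 to 2.87, adjusted p = 0.00797, edgeR). Stra6 passed the filter on low counts (10 counts at the median library size in 2 libraries) through the siCnot1 libraries alone, the group where it is high. With so few counts in siNT the size is loosely set. The call was lost when any one library was left out, with an adjusted p of 0.107 without siNT replicate 1, 0.0582 without siNT replicate 2, 0.0707 without siCnot1 replicate 1 and 0.082 without siCnot1 replicate 2 (edgeR). The gene Ccdc33 lies on the opposite strand in the same span but shares no exon bases with it.

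The cytoplasmic carriers of retinoic acid did not pass the test. Crabp1, at chr9:54672032-54680394 on the plus strand, had normalised CPM of 9.64 and 9.76 in siNT and 7.28 and 9.62 in siCnot1. One siCnot1 library was at the siNT level, and the log2 fold change was -0.20 (SE 0.16, 95% interval -0.53 to 0.13, adjusted p = 0.386, edgeR). Crabp2, at chr3:87856000-87860679 on the plus strand, had 27 and 37 counts in siNT and 57 and 52 in siCnot1, or normalised CPM of 0.868 and 1.18 against 1.70 and 1.55. Its log2 fold change was 0.67 with an interval from -0.11 to 1.45 (adjusted p = 0.198, edgeR). Per length, Crabp2 made up 7.43% and 9.73% of the summed CRABP TPM in siNT and 17.2% and 12.6% in siCnot1.

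Fabp5 encodes a fatty acid-binding protein that can also carry retinoic acid, to PPARδ. It was lower, with 803 and 690 counts in siNT and 379 and 435 in siCnot1 (log2 fold change -0.98, SE 0.121, adjusted p = 1.73e-06, edgeR).

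Dhrs3, which returns retinaldehyde to retinol and is itself induced by retinoic acid in many tissues, was higher in siCnot1. It lies at chr4:144618712-144654779 on the plus strand. The siNT libraries held 4.63 and 3.83 normalised CPM and the siCnot1 libraries 7.17 and 7.23. The siCnot1 libraries were nearly equal and both above siNT, with a log2 fold change of 0.77 (SE 0.19, 95% interval 0.37 to 1.16, adjusted p = 0.00342, edgeR). The call held without siCnot1 replicate 1 (adjusted p = 0.047) and was lost without siNT replicate 1 (0.0527), siNT replicate 2 (0.0906) or siCnot1 replicate 2 (0.0546).

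Cyp26a1, the retinoic acid hydroxylase gene whose DR5 is shown above, was low and not called. It lies at chr19:37686186-37689984 on the plus strand of GRCm39. It had 44 and 24 counts in siNT and 22 and 17 in siCnot1, or normalised CPM of 1.41 and 0.766 against 0.657 and 0.508. The lower siNT library was close to the siCnot1 libraries, and the log2 fold change of -0.90 had an interval from -1.94 to 0.14 (SE 0.503, adjusted p = 0.192, edgeR). Neither of the 2 members with a DR5 was called, where 29.7% of all genes were, and their log2 fold changes had opposite signs. Both are low with wide intervals, so these 2 genes say nothing about DR5 carriers in general.

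The second CYP26 gene, Cyp26b1, was called higher, with 17 and 9 counts in siNT and 61 and 45 in siCnot1 (log2 fold change 1.92, SE 0.476, adjusted p = 0.00351, edgeR). Like Stra6 it had few counts in siNT and passed the filter on low counts through the siCnot1 libraries alone. Retsat, which saturates a double bond of retinol, had normalised CPM of 5.24 and 7.12 in siNT and 14.5 and 11.7 in siCnot1 (log2 fold change 1.09, SE 0.166, adjusted p = 2.61e-05, edgeR). Dgat1, an acyltransferase that can also esterify retinol, was higher by 0.53 (SE 0.13, adjusted p = 0.003, edgeR). The Dgat1 call was lost when low counts were not filtered (adjusted p = 0.116, edgeR). The 4 named calls in uptake and metabolism, namely these 3 and Fabp5, were all that passed of 18 tested out of 28 listed genes (22.2%, against 29.7% of all genes), with a median log2 fold change of 0.07. Leaving out siNT replicate 1 ended the Retsat call (adjusted p = 0.0574), the Cyp26b1 call (0.0554) and the Dgat1 call (0.178), all by edgeR. The latter 2 were also lost without siNT replicate 2 (0.0994 and 0.172) or siCnot1 replicate 1 (0.0999 and 0.223).

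The enzymes that make retinoic acid showed no call. Aldh1a2, the main embryonic one, had 33 and 44 counts in siNT and 42 and 43 in siCnot1 (log2 fold change 0.04, adjusted p = 0.952, edgeR). Aldh1a3 had 7 and 10 counts against 16 and 17 (log2 fold change 0.85, 95% interval -0.56 to 2.25, adjusted p = 0.384, edgeR). It passed the filter on low counts through the siCnot1 libraries alone, where it is high. Aldh1a1 had 4 counts in 1 siNT library and 0 in the other 3 libraries and was not tested.

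Further target genes of retinoic acid were counted to set Tgm2 beside its class. Of 24 listed, 19 were tested, of which 2 were higher, 2 lower and 15 not called (21.1% called, against 29.7% of all genes), giving a median log2 fold change of -0.01. The pioneer factor gene Foxa1 had normalised CPM of 1.25 and 1.24 in siNT and 3.79 and 3.32 in siCnot1 (log2 fold change 1.51, SE 0.289, adjusted p = 0.00033, edgeR). Bhlhe40, which encodes a transcriptional repressor, was lower, with 57.6 and 39.8 CPM in siNT and 15.2 and 13.5 CPM in siCnot1 (log2 fold change -1.76, SE 0.132, adjusted p = 1.47e-09, edgeR). Its fall was the nearest in size to that of Tgm2 within the list.

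The homeobox gene Gbx2 was lower by -0.40 (SE 0.0977, adjusted p = 0.0028, edgeR), a call that was lost without siNT replicate 1 (0.0757), siNT replicate 2 (0.0726) or siCnot1 replicate 1 (0.0903). Hoxb1 had 0 and 4 counts against 12 and 4 and was not tested. The Foxa1 and Bhlhe40 calls held with any one library left out. Over the 88 genes of all these lists, 66 were tested and 10 were higher and 10 lower, which is 30.3% called against 29.7% of all genes.

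**Figure D5:**
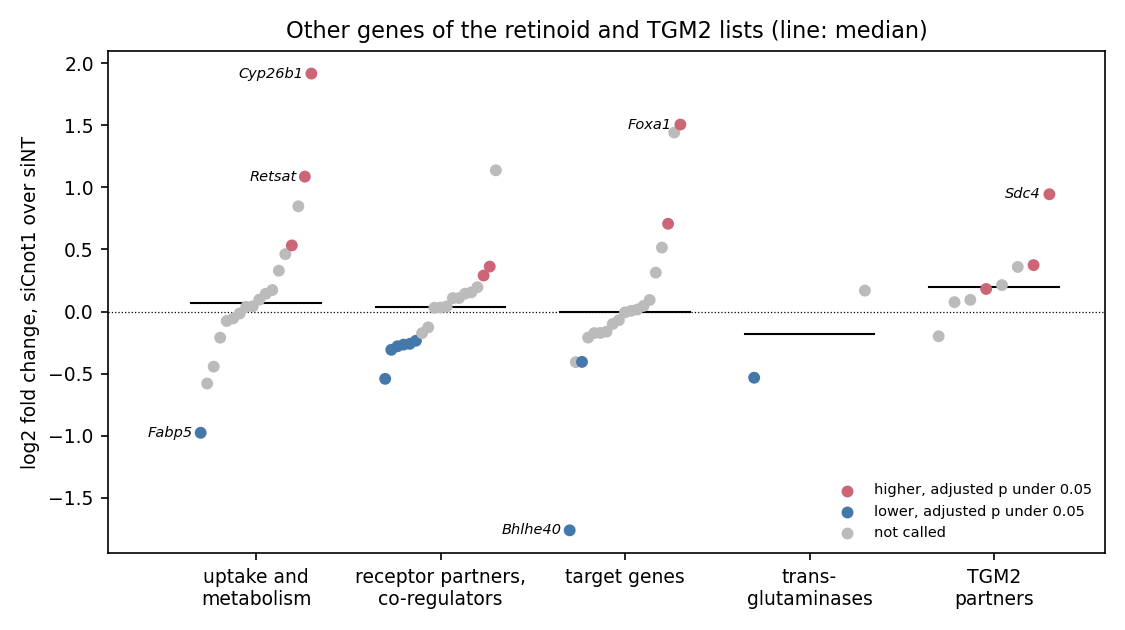
Log2 fold change (siCnot1 minus siNT) of every tested gene in the 5 lists of pathway genes, target genes, transglutaminases and transglutaminase 2 partners, with called genes coloured by direction and the list median as a line. The list medians lie between -0.18 and 0.20, around values that run from -1.76 to 1.92.

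Per length, Rarg was the highest of the 9 members in every library, at 137 and 143 TPM in siNT and 173 and 177 TPM in siCnot1. Tgm2 was next in siNT with 50.3 and 51.4 TPM, above Crabp1 (29.1 and 30.1 TPM) and Rara (24.1 and 23.7 TPM). In siCnot1 Tgm2, at 14.8 and 13.3 TPM, lay below Rara (34.9 and 36.6 TPM) and Crabp1 (25.03 and 32.47 TPM). Tgm2 and Rara thus exchanged the second and the fourth place. Crabp2, Dhrs3, Rarb and Cyp26a1 lay between 0.743 and 5.21 TPM in all libraries, and Stra6 between 0.16 and 0.83 TPM. In siNT the neighbours Dhrs3 and Rarb, and Rarb and Cyp26a1, overlapped between libraries, as did Cyp26a1 and Stra6 in siCnot1, so their order is not set by these data.

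Markers of other cell types moved between the groups as well. Primitive endoderm markers, of which 9 of 10 were tested, summed to 14.8 to 17.2 CPM in siNT and 25.9 to 26.7 CPM in siCnot1, and 3 were called higher (Pdgfra, Dab2 and Cubn). The defining factors Gata4, Gata6, Sox17 and Sox7 were not called. Fibroblast markers summed to 21.99 to 25.14 CPM in siNT and 34.7 to 38.4 CPM in siCnot1. Of the 6 tested of 10, 4 were called higher (Col1a1, Twist1, Pdgfrb and Acta2) and none lower, while Col3a1 and Dcn were at 0 in all libraries. Neural markers summed to 95.02 to 101.3 CPM and 140.5 to 142.8 CPM, and of the 5 tested only Tubb3 was called higher (63.4 to 108 CPM) and Pax6 was called lower (4.29 to 2.46 CPM). The rise in the sum came almost wholly from Tubb3. Among those not called, the mean of Sox1 was lower and those of Map2 and Nes higher in siCnot1. Endothelial markers summed to 197 to 198 CPM and 238 to 246 CPM, with Tek higher (20.9 to 50.3 CPM), the other 3 tested not called and Emcn at 0. Pecam1, with means of 171 CPM in siNT and 186 CPM in siCnot1, made up most of these sums. Trophectoderm markers summed to 97.53 to 100.6 CPM and 71.16 to 76.85 CPM, with 3 of 8 tested lower (Krt8, Krt18 and Tfap2c) and Krt7 higher. Markers of the 2-cell-like state, a rare totipotent-like state of ESC cultures, summed to 77.6 to 78.6 CPM in siNT and 208 to 215 CPM in siCnot1. Of these 8 markers 7 were called higher (87.5%, against 15.0% of all genes tested). Zscan4a to Zscan4f in this list are paralogs of one cluster, so reads may be split among them and their calls are not independent. The study had already reported Zscan4a, Zscan4c and Usp17la as higher after Cnot1 knockdown. Cubn, Acta2 and Krt7 passed the filter on low counts through the siCnot1 libraries alone, where they are high. In siNT they had 2 and 14, 6 and 2, and 2 and 4 counts, respectively. The part of the marker shifts in the values of Tgm2, Stra6, Dhrs3 and Rara was not tested.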

How the data were processed

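Poly(A) RNA of E14 ESCs was sequenced in 4 libraries by the authors, who deposited raw counts per gene, not normalised and not pooled, with positions that are those of GRCm39. The submitters' notes name fastp 0.19.4, HISAT2 2.2.1, DESeq2 1.40.2 and the build mm10; the counter and its strand setting are not given in the sources used here, so reads of overlapping antisense genes may not be told apart. Here 18144 genes passing filterByExpr (minimum count 10) were fitted in edgeR 4.0.16 (R 4.3.3; TMM, quasi-likelihood, two-sided, condition only, Benjamini-Hochberg over all genes; called at an adjusted p under 0.05). SE is the log2 fold change over the root of F. Normalised CPM use the TMM library sizes; TPM use the listed gene lengths and serve between genes only.

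Alternatives were DESeq2 1.42.0, limma 3.58.1 (voom), other scalings and filters, and leaving out each library. The study's rule (unadjusted p of at most 0.05 and at least 2-fold) was applied here to the edgeR fit, whereas the study used DESeq2. The code was tested on simulated data. Members and lists were chosen with earlier results of these data known. Named genes were the 9 members, Cnot1, called genes of the lists (at most the 4 largest per direction), a few fixed pathway genes, genes overlapping a member, tested genes within 250 kb of Tgm2 and its 5 nearest profiles. Replicates of a group differed by more than counting noise (chi-square per degree of freedom 5.57 and 6.57) and were kept as 2 samples. Some genes that this rule covers are not reported here.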

Additional observations from a re-analysis of the deposited data

How the results depend on the processing

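Of the fold changes of the 8 tested members recomputed under each alternative, 82 kept their direction and side of the threshold, 13 lost the call and none reversed; Tgm2, untested, stood at -1.91 with library totals and -2.09 without siCnot1 replicate 1. The 4 member calls became 3 without the filter and 1 by the study's rule, and 1 to 2 with a library left out; the 20 calls in the wider lists became 5 and 11 to 17. Genes called higher (2719) numbered 1303 without the filter, 1121 by the study's rule and 743 to 1439 with a library left out. Genes called lower (2668) numbered 1563 with library totals, 1450, 326 and 871 to 1463, respectively. DESeq2 called 1873 higher and 2275 lower. Fits without a library rest on 3 samples, and the lone library is assumed to vary like the other group. The median member level in siNT was 2.79 TPM and 1.10 FPKM on library totals. Signs reversed for Rxra (-0.0503 to 0.24 with a library left out, below 0 without siCnot1 replicate 2) and Aldh1a2 (-0.15 to 0.26, below 0 without siNT replicate 1); the cause was not tested. The labels do not say whether same-numbered replicates were paired. The correlation of same-numbered deviations was 0.0109 across genes (2 pairs), and with so few libraries it cannot settle whether they were. With a replicate block 3 members were called, Rarg being lost (adjusted p = 0.0677, edgeR), and 2524 genes were higher and 2431 lower. Depth limits Stra6, Cyp26a1, Crabp2 and Rarb most.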

Other observations

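Among the listed targets too low to be tested, Nr2f1, which encodes an orphan nuclear receptor induced by retinoic acid, had 0 counts in both siNT libraries and 13 and 9 in siCnot1. The siCnot1 mean lay 3.42-fold above the level that 3 counts per library would give in siNT. This value leaves out the counting error of so few reads. Zfp703, a zinc finger gene of the same list, had 7 and 20 counts in siNT and 29 and 50 in siCnot1. It was tested but not called (log2 fold change 1.44, adjusted p = 0.0512, edgeR). Zfp703 passed the filter on low counts through the siCnot1 libraries alone, where it is high. Stra8, a germ cell target of retinoic acid, had a log2 fold change of 0.09 (adjusted p = 0.524, edgeR). These 3 genes were named after their values were seen.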
